A study of Mus musculus with 6 samples.

Results

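The SIX-family and EYA factors are 8 genes here, Six2, Six4, Six5, Eya1, Eya2, Eya3, Eya4 and Dach1, taken by gene name from the 55413 genes with a unique ID in the table, and each had 1 record. RNA was sequenced from C2C12, a line of mouse myoblasts able to form multinucleate myotubes, at day 4 after the switch to horse serum. The labels give 2 groups of 3 libraries, FHL3-KO cells, in which the LIM-domain protein FHL3 was knocked out, and WT cells, and both groups had the same growth and differentiation medium. By its title, the study asks about FHL3 in the making of fast glycolytic fibres, a fibre type that SIX-family and EYA factors are known to favour. The titles name no clone and no editing method, so an effect of a clone cannot be told apart from that of the genotype. Whether each library had its own culture is not stated, so p-values measure the spread between these samples alone, which may be technical.

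SIX-family proteins are homeodomain transcription factors. They bind DNA sites called MEF3 in muscle genes and need EYA proteins, which do not bind DNA themselves, as coactivators. Without EYA, SIX-family proteins can pair with repressors of the Groucho (TLE) family, and DACH proteins are co-repressors in the same network. In mouse muscle, SIX4 and its relatives act with EYA proteins on the myogenic regulators and on genes of fast fibres.

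The libraries and labels were checked first. Values are read as FPKM, a level per transcript length and library size, and they summed to between 424987 and 494176 per library, while the depth in reads is unknown. Fhl3 itself had 57.2, 53.5 and 58.9 FPKM in the FHL3-KO libraries, against 27.8, 30.0 and 33.7 FPKM in WT (limma adjusted p = 0.000547). The targeted RNA was thus the higher one under the FHL3-KO label, and "FHL3-KO" below means that label. WT replicate 1 stood apart by liver transcripts. The summed level of 8 liver markers was 90.4 FPKM in WT replicate 1 and at most 0.466 FPKM in each of the other libraries. Of 8 myotube markers 7 were called higher in FHL3-KO and 0 lower, beside 19.7% of all genes tested called higher and 21.2% lower. The 8 markers summed to 8795 to 9224 FPKM in FHL3-KO and 3289 to 3599 FPKM in WT.

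Eya1 and Eya4 were the members that fell, Eya3, Six4 and Six5 did not pass the test, and Six2, Dach1 and Eya2 were at or near 0. Of the 8 members, 5 averaged 1 FPKM or more in FHL3-KO or WT and entered the limma test, and 3 did not. Of those 5, 2 were called lower at an adjusted p of 0.05 and 0 higher. Of all 12528 genes tested, 21.2% were called lower and 19.7% higher, 40.8% in all, so 2 of 5 called in either direction is close to the background. Of all calls 48.2% were higher in FHL3-KO, and 36.1% once all libraries were given one sum. The median log2 change of the 5 was -0.42, beside -0.01 over all genes tested. In bulk RNA, fewer cells of a type and less RNA per cell cannot be told apart.

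**Figure D1:**
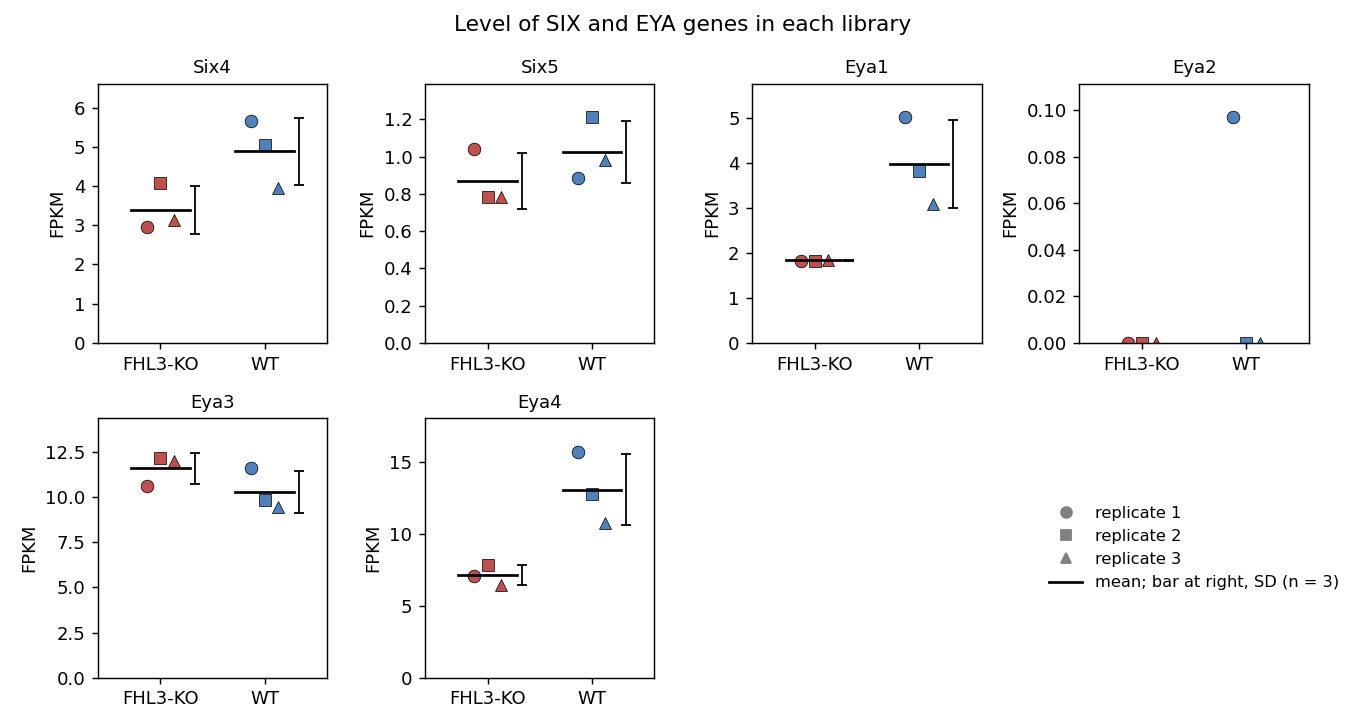
Level in FPKM of 6 members in each library, FHL3-KO on the left and WT on the right of each panel; symbols mark replicates, lines the mean and bars the SD (n = 3), with no mean for Eya2. The 3 FHL3-KO libraries lie below all WT libraries for Eya1 and Eya4, while Six4, Six5 and Eya3 overlap between the groups.

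Eya4 encodes a coactivator of the EYA family that also has a phosphatase domain. It lies on chromosome 10 (ENSMUSG00000010461, 23102963 to 23350786, minus strand, GRCm38). Its level was 7.07, 7.87 and 6.46 FPKM in FHL3-KO, against 15.7, 12.8 and 10.8 FPKM in WT. Every FHL3-KO library was below every WT library, and WT replicate 1 was the highest. The mean was 7.14 ± 0.70 FPKM in FHL3-KO and 13.1 ± 2.4 FPKM in WT (SD, n = 3 each), which is 45.5% lower. The change was -0.78 on the log2(FPKM + 1) scale, where changes of low genes come out smaller than they are (SE 0.141, 95% interval -1.11 to -0.45, limma adjusted p = 0.00458). After the trend of each library with exon length and GC content was removed, the change was -0.32 and still called (adjusted p = 0.0104). Without WT replicate 1 it was -0.65 (adjusted p = 0.011).

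Eya1, the family member whose loss is known to impair ear and kidney formation in mice, fell as well, at a lower level. The gene is on chromosome 1 (ENSMUSG00000025932, 14168954 to 14310235, minus strand, GRCm38). It had 1.82, 1.83 and 1.85 FPKM in FHL3-KO, against 5.01, 3.83 and 3.08 FPKM in WT. The SD was 0.93% of the mean in FHL3-KO and 24% in WT, and the groups did not overlap. The mean was 1.83 ± 0.017 FPKM in FHL3-KO and 3.98 ± 0.97 FPKM in WT (SD, n = 3 each), 53.9% lower. The log2 change was -0.80 (SE 0.153, 95% interval -1.15 to -0.44, limma adjusted p = 0.00596). It was -0.65 without WT replicate 1 (adjusted p = 0.0122) and -0.61 after length and GC correction (adjusted p = 0.00485). Among all tested genes ordered from the largest fall, Eya1 stood at place 961 and Eya4 at place 1015 of 12528. The groups were apart, with FHL3-KO lower, for 2 of the 5 tested members. Over all genes tested they were apart for 53.8%, 26.9% with FHL3-KO lower and 26.9% with FHL3-KO higher.

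Other transcripts differed between the groups too. Over all genes tested, 40.8% were called, 21.2% lower and 19.7% higher. Of 5 tested fibroblast markers 3 were called lower (Dcn, Col3a1 and Postn) and 1 higher (Col1a1). The 6 in the list summed to 148 to 166 FPKM in FHL3-KO and 435 to 498 FPKM in WT, with none at 0 throughout. Of 5 cycling-cell markers 3 were called lower (Mki67, Top2a and Bub1) and 1 higher (Ccnb1). Their sums were 77.1 to 93.3 FPKM in FHL3-KO and 86.7 to 105 FPKM in WT, with none at 0. Of 6 markers of undifferentiated myoblasts 4 were tested, of which 3 were called higher (Cdh15, Sdc4 and Spry1) and 1 lower (Myf5). The 6 summed to 294 to 306 FPKM in FHL3-KO and 224 to 231 FPKM in WT, with Chrdl2 at 0. The part of these cell types in the changes of Eya1 and Eya4 was not tested.

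Eya3, a coactivator of the same family that is expressed in many tissues, was not called. It lies on chromosome 4 (ENSMUSG00000028886, 132638987 to 132724765, plus strand, GRCm38), 7.93 Mb from Fhl3. It had 10.6, 12.2 and 12 FPKM in FHL3-KO, against 11.6, 9.83 and 9.44 FPKM in WT. The groups overlapped through WT replicate 1. The mean was 11.6 ± 0.90 FPKM in FHL3-KO and 10.3 ± 1.1 FPKM in WT (SD, n = 3 each). The log2 change of 0.16 did not pass (95% interval -0.09 to 0.41, limma adjusted p = 0.259). Eya2 had a value in 1 library, 0.097 FPKM in WT replicate 1, and was listed at 0 in the other 5. Eya2 RNA was therefore too low here to compare.

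The order of the EYA genes differed between the groups. In FHL3-KO, Eya3 led Eya4 and Eya1, and in WT, Eya4 led Eya3 and Eya1. Eya4 was at 0.67, 0.642 and 0.54 times the level of Eya3 in the FHL3-KO libraries and at 1.36, 1.30 and 1.14 times in the WT libraries. This order held in each of the 6 libraries. The exact two-sided permutation test of the ratio gave p = 0.1, the smallest that 3 against 3 allows. Over libraries, the WT ranges of Eya4 and Eya3 nonetheless overlapped.

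As shares of the summed FPKM of Eya1 to Eya4, which no linear scaling of a library changes, Eya3 took 56.4% ± 2.4 in FHL3-KO and 37.8% ± 2.4 in WT (SD, n = 3 each). Eya4 took 34.7% ± 2.5 in FHL3-KO and 47.7% ± 1.2 in WT. Eya1 took 8.93% ± 0.54 in FHL3-KO and 14.4% ± 1.1 in WT. Without WT replicate 1 the difference in the share of Eya4 was -12.7 percentage points, FHL3-KO minus WT, and in that of Eya1 -4.92. The groups were apart for all 3 genes, each at the smallest two-sided p the exact permutation test allows, 0.1. Shares of a library add up to its whole, so lower shares of Eya4 and Eya1 make that of Eya3 higher. These are thus not 3 separate results, and the level of Eya3 was not called. In level, the groups were apart for 53.8% of all genes tested. The summed EYA level was 19.5, 21.9 and 20.3 FPKM in FHL3-KO, against 32.4, 26.5 and 23.3 FPKM in WT. Eya4 stood at 3.89, 4.31 and 3.49 times Eya1 in FHL3-KO and at 3.13, 3.34 and 3.50 times in WT (exact p = 0.2). Eya1 was at 0.172, 0.149 and 0.155 times Eya3 in FHL3-KO and at 0.433, 0.39 and 0.327 times in WT. The Eya4 to Eya1 ratio overlapped between the groups, while both ratios to Eya3 did not. Length and GC correction, which was not run on shares or ratios, brought the log2 change of Eya4 to -0.32 against -0.78 without it, and that of Eya3 to 0.13 against 0.16, so the contrast between these genes was smaller after it.

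**Figure D2:**
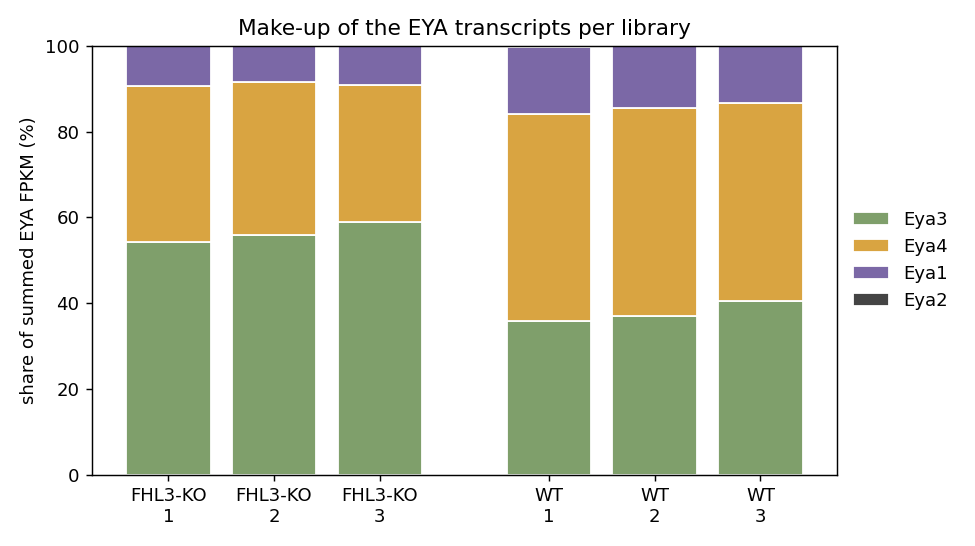
Share of Eya1, Eya2, Eya3 and Eya4 in the summed EYA FPKM (percent, vertical axis) in each library, FHL3-KO bars on the left and WT bars on the right. Eya3 fills at least 54.3% of each FHL3-KO bar and at most 40.5% of each WT bar.

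Six4, a homeodomain factor of muscle and the best-expressed of the 3 SIX-family members, was lower on average without passing the test. It lies on chromosome 12 (ENSMUSG00000034460, 73099609 to 73113456, minus strand, GRCm38). Its level was 2.95, 4.08 and 3.14 FPKM in FHL3-KO, against 5.65, 5.06 and 3.96 FPKM in WT. FHL3-KO replicate 2 lay above WT replicate 3, so the groups overlapped. The mean was 3.39 ± 0.61 FPKM in FHL3-KO and 4.89 ± 0.86 FPKM in WT (SD, n = 3 each). The log2 change was -0.42 (SE 0.152, 95% interval -0.78 to -0.07, limma adjusted p = 0.0598). Its adjusted p was 0.049 with median-of-ratios scaling, 0.028 without FHL3-KO replicate 2 and 0.0334 without WT replicate 3. Without WT replicate 1 the change was -0.33 (adjusted p = 0.165), and after length and GC correction it was -0.11 (adjusted p = 0.349).

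A promoter window of Six4 is shown beside that of Myog, because both hold the MEF3 letters that SIX-family proteins are known to bind. RefSeq windows (GRCm38.p6) run from 250 bases before to 50 after an annotated start, and 6 of the 8 members have at least 1. Eya1 and Eya2 had no window here and were not searched. The windows are chr12:73113196-73113495 on the minus strand for Six4 and chr1:134289754-134290053 on the plus strand for Myog, 5′ to 3′, with the MEF3 match (TCAGGTT, or AACCTGA on the other strand) in capitals.
Six4: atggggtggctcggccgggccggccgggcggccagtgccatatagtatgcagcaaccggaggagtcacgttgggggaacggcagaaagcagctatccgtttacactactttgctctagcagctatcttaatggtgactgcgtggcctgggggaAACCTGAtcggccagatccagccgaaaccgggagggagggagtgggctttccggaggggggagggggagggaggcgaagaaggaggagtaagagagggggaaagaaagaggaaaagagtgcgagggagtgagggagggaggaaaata
Myog: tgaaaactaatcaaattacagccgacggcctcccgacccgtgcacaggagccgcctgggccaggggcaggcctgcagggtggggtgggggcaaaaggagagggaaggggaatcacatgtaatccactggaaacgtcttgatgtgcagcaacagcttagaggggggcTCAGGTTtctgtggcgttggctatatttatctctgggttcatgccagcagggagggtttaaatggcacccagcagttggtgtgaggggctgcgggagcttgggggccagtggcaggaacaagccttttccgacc

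In the Six4 window the match lay on the strand opposite to the gene and began 97 bases before that window's start site. It spans 73113336 to 73113342, inside the Six4 gene as given above (73099609 to 73113456). Seen from the farther start of the second Six4 window, it lies past the start. In the Myog window the match lay on the gene's strand, 84 bases before the start. Both matches extend to the 9 letters TCAGGTTTC. Of 32851 mouse windows of this length, 4.07% hold TCAGGTT and 0.429% hold TCAGGTTTC on either strand. The second Six4 window, which starts farther upstream, and the windows of Six2, Six5, Eya3, Eya4 and Dach1 hold no TCAGGTT. None of the 8 windows, which belong to 6 members and not to Eya1 or Eya2, holds the E-box CAGCTG (16.3% of all windows). None holds the YY1 letters AANATGGC (6.05% of all windows), searched on both strands. Such matches describe the letters only. Myog, which drives terminal differentiation, rose, and had 900, 831 and 1019.8 FPKM in FHL3-KO, against 202, 254 and 295 FPKM in WT (log2 change 1.88, limma adjusted p = 0.000193).

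Six5, whose gene follows the myotonic dystrophy kinase gene Dmpk in the genome, was expressed near the test's lower limit. It lies on chromosome 7 (ENSMUSG00000040841, 19094594 to 19098549, plus strand, GRCm38), 772 bases past the end of Dmpk on the same strand. It had 1.04, 0.785 and 0.781 FPKM in FHL3-KO, against 0.886, 1.21 and 0.98 FPKM in WT. FHL3-KO replicate 1 lay above 2 of the WT libraries. Its log2 change of -0.11 (95% interval -0.42 to 0.19) did not pass limma (adjusted p = 0.505), and it turned to 0.09 with quantile normalization. Dmpk stood at 168 ± 7.3 FPKM in FHL3-KO and 143 ± 2.7 FPKM in WT (log2 change 0.23, limma adjusted p = 0.0374). The call of Dmpk ended under most alternatives, with an adjusted p of up to 0.82. Six5 passed the filter of 1 FPKM narrowly and only through WT, with a mean of 1.03 FPKM there and 0.87 FPKM in FHL3-KO. The nearest member outside it was Eya2.

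Six2, known from kidney progenitors, and Dach1, the co-repressor, were listed at 0 FPKM in all 6 libraries. They lie on chromosomes 17 and 14. Six3, the neighbour of Six2, was also listed at 0 throughout.

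Among the 3 SIX-family members, the summed level was 4.0, 4.87 and 3.92 FPKM in FHL3-KO, against 6.54, 6.27 and 4.94 FPKM in WT. The groups were apart by a narrow gap between FHL3-KO replicate 2 and WT replicate 3. Of all single genes tested 53.8% were apart, while Six4 alone, the largest part of this sum, overlapped between the groups. The share of Six4 in this sum was 79.3% ± 5.0 in FHL3-KO and 82.5% ± 3.5 in WT (SD, n = 3 each, exact p = 0.4).

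**Figure D3:**
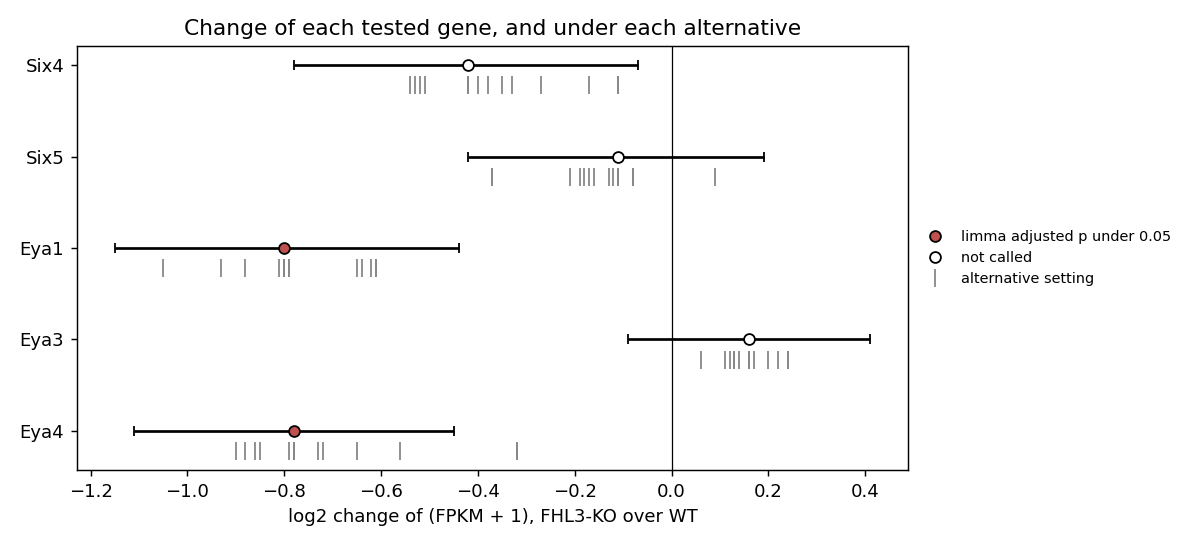
Log2 change of FPKM + 1, FHL3-KO over WT (horizontal axis), of the 5 tested members, with the 95% interval of the limma fit; filled points passed an adjusted p of 0.05 and grey ticks are the alternative settings. Eya1 and Eya4 lie below 0 under every setting run that kept them, and Six5 lies on both sides of 0.

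By level, the order in FHL3-KO was Eya3, Eya4, Six4, Eya1 and Six5, and the ranges of these neighbours did not overlap. In WT the order was Eya4, Eya3, Six4, Eya1 and Six5, and there the ranges of Eya4 and Eya3, and of Six4 and Eya1, overlapped. Among the 12528 tested genes, Eya3 stood at percentile 53.2 of the mean level, Eya4 at 50.8, Six4 at 27.3, Eya1 at 20.1 and Six5 at 2.6. By exon length, Six4 stood at percentile 93.0, Eya4 at 89.5 and Eya1 at 82.6 of the tested genes. WT replicate 1 had the highest value of the 3 WT libraries in 4 of the 5 tested members.

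The genes most alike were taken as the 3 with the highest Pearson r of log2(FPKM + 1) over the 6 libraries, which share group and library, so r is a description. For Eya4 these were Cnot2, Trpm7 and Tshz1, each at r = 0.999. Trpm7 had 3.66 ± 0.54 FPKM in FHL3-KO and 7.67 ± 1.9 FPKM in WT. For Eya1 they were Itgb8 (0.999), Zfp704 (0.998) and Kcnc2 (0.998), of which the integrin Itgb8 had 0.572 ± 0.023 FPKM in FHL3-KO and 2.11 ± 0.64 FPKM in WT. For Six4 they were Gm10226, Mtor and Ern1 at r between 0.997 and 0.998, for Eya3 Atp2b4, Fam160b2 and Kremen1 between 0.994 and 0.995, and for Six5 Zfp647, Kalrn and Qtrt2 between 0.937 and 0.988.

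Of 15 nearest protein-coding neighbours of the 8 members, 8 were tested and 2 were called, Dmpk (above) and Msc, beside the 40.8% of all genes called. Msc encodes musculin, a bHLH repressor of muscle genes, and lies 443110 bases from Eya1. It fell with Eya1, to 9.14 ± 1.4 FPKM in FHL3-KO against 20.4 ± 2.2 FPKM in WT (log2 change -1.08, limma adjusted p = 0.000895). Mnat1, the neighbour of Six4 at higher coordinates, had 15 ± 1.8 FPKM in FHL3-KO and 16.1 ± 1.3 FPKM in WT (limma adjusted p = 0.495). Small annotated RNAs, a pseudogene or other noncoding genes overlap Eya1, Eya2, Eya4 and Dach1. Those with a row in the table were at most at a mean of 0.0229 FPKM in a group.

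Among the 14 co-regulators of SIX-family and EYA proteins, changes went both ways. Of 13 tested, 4 rose and 2 fell, with a median log2 change of 0.00, beside the background of 40.8% called. Sobp, whose fly homologue binds Sine oculis, the fly SIX-family protein, had the largest change among them. It had 1.69, 2.49 and 2.33 FPKM in FHL3-KO, against 0.167, 0.142 and 0.0727 FPKM in WT. The groups were far apart, at a log2 change of 1.48 (limma adjusted p = 0.00037). Sobp entered the test only through FHL3-KO, where its mean was 2.17 FPKM against 0.127 FPKM in WT. The test is therefore no separate support for its rise. Mcrs1, reported as a cofactor of a SIX-family protein in Xenopus, rose to 58.3 ± 3.3 FPKM in FHL3-KO against 36.3 ± 1.2 FPKM in WT (log2 change 0.67, limma adjusted p = 0.000741).

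Of the 5 Groucho-family genes in the list, 1 rose, 1 fell, 2 were not called and 1 was below the filter. Tle2 fell to 2.89 ± 0.29 FPKM in FHL3-KO against 6.16 ± 0.42 FPKM in WT, and Tle1 rose to 9.96 ± 1.1 FPKM in FHL3-KO against 7.22 ± 0.62 FPKM in WT (limma adjusted p = 0.000995 for Tle2 and 0.0205 for Tle1). Tle3 (log2 change 0.21, limma adjusted p = 0.084) and Tle5 (-0.31, limma adjusted p = 0.155) did not pass. Tle4, not tested, had 1.02, 0.927 and 0.69 FPKM in FHL3-KO, against 0.329, 0.248 and 0.181 FPKM in WT, so its groups were apart. Of tested genes 26.9% were apart with FHL3-KO higher, and the share among genes below the filter was not computed. The co-repressor Ski, a relative of DACH proteins, rose to 38.7 ± 3.7 FPKM in FHL3-KO against 28.2 ± 3.2 FPKM in WT, and the co-repressor Ncor1 fell to 11.5 ± 1.6 FPKM in FHL3-KO against 19.5 ± 4.2 FPKM in WT (limma adjusted p = 0.015 for Ski and 0.0117 for Ncor1). Scaling to an equal sum ended the calls of Tle1 and Ski (adjusted p = 0.104 for Tle1 and 0.0837 for Ski). They also ended without WT replicate 2 (0.0638 for Tle1 and 0.0616 for Ski), and that of Tle1 ended without FHL3-KO replicate 1 (0.0536) and without WT replicate 3 (0.0614).

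Of 5 further genes of the SIX-family, PAX and DACH network, 0 passed the filter. Pax3, a factor of embryonic muscle progenitors, Six3 and Dach2 were listed at 0 in all 6 libraries. Six6 was at most 0.0182 FPKM in any library. Pax7, a factor of muscle stem cells, had 0.858, 1.20 and 0.926 FPKM in FHL3-KO, against 0.988, 0.905 and 0.896 FPKM in WT, and was not tested.

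Of 11 genes reported as SIX-family targets 9 were tested, and 4 rose and 1 fell, with a median log2 change of 0.31, beside 19.7% of all genes called higher and 21.2% lower. Besides Myog, the membrane linker Ezr rose to 47.7 ± 4.3 FPKM in FHL3-KO against 25.2 ± 1.0 FPKM in WT, and the slow and cardiac troponin C gene Tnnc1 to 2532 ± 410 FPKM in FHL3-KO against 1511 ± 150 FPKM in WT. The adjusted p in limma was 0.000437 for Ezr and 0.00904 for Tnnc1. Tnnc1 lost its call without a filter (adjusted p = 0.0712). The fourth was Myod1, named after its values were seen (log2 change 0.32, limma adjusted p = 0.0101), so it was not called at a threshold of 0.01. Its call also ended with quantile normalization (adjusted p = 0.158), scaling to the same sum (0.0774), length and GC correction with or without the replicate block (0.436) and without WT replicate 2 (0.0544). Myf5, the early myogenic factor, fell to 8.64 ± 0.84 FPKM in FHL3-KO against 29.5 ± 5.7 FPKM in WT (log2 change -1.65, limma adjusted p = 0.000239), and 2 of the targets fell with quantile normalization or the same sum.

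**Figure D4:**
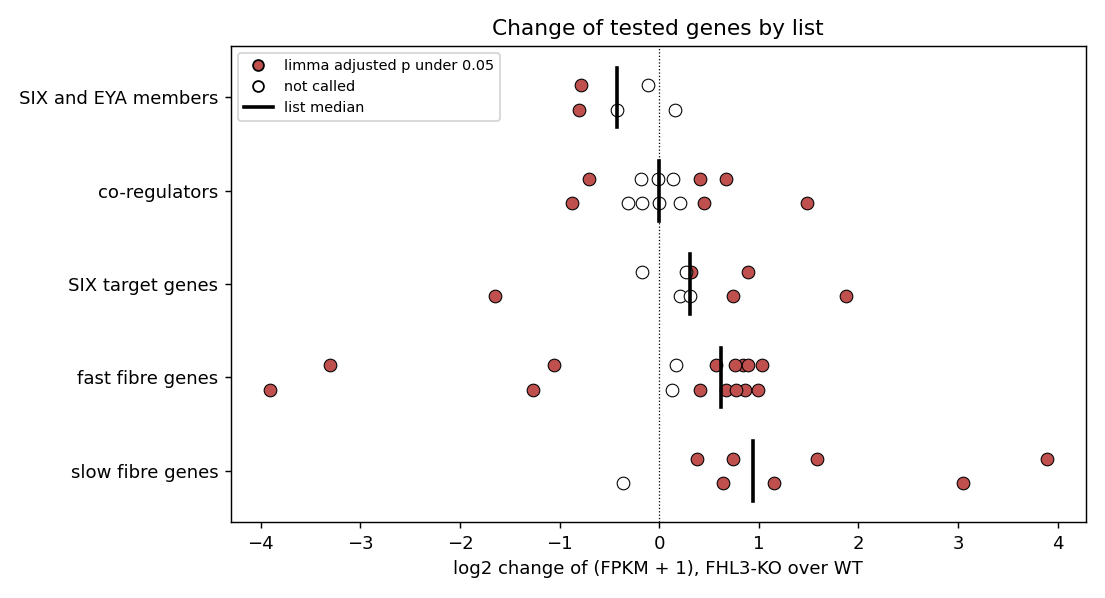
Log2 change of FPKM + 1, FHL3-KO over WT (horizontal axis), of each tested gene of 5 lists; filled points passed a limma adjusted p of 0.05 and thick bars are list medians. The member median is -0.42 and the medians of SIX-family target, fast fibre and slow fibre genes are 0.31, 0.62 and 0.95.

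The fibre genes downstream in the known network are given as counts. Of 16 fast fibre genes 10 rose and 4 fell, with a median log2 change of 0.62, beside the 40.8% of all genes called. The 4 risers with the smallest p were the calcium pump Atp2a1 (0.99), the creatine kinase Ckm (0.76), the glycogen phosphorylase Pygm (0.77) and the fast troponin T gene Tnnt3 (0.84). The 4 that fell were Myh4, Myh1, Myh2 and Pvalb, at -3.91, -1.27, -1.06 and -3.30. Pvalb entered the test only through WT, where its mean was 11.9 FPKM against 0.333 FPKM in FHL3-KO. Its test is therefore no separate support for its fall. Of 8 tested slow fibre genes 7 rose and 0 fell, with a median of 0.95, beside 19.7% of all genes called higher. The 1 not called was Atp2a2 (log2 change -0.36, limma adjusted p = 0.0517). Under several alternatives 1 slow fibre gene fell, among them quantile normalization, both scalings, length and GC correction and the replicate block. Myh7 (3.89) and Myh6 (3.05) had the largest changes of those named. Reads shared between these similar myosins may be split uncertainly. The lists, like the members, were chosen with earlier results of these data known, so the counts describe them and are no independent support.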

How the data were processed

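Per the labels, total RNA of 6 C2C12 libraries was isolated with Trizol, freed of genomic DNA and made into libraries by the Illumina protocol. The submitters' processing notes name mm10, DESeq2 1.28.1, HISAT2 2.2.1, Trim Galore 0.6.6 and featureCounts 2.0.1, without their roles. The deposited values are read as FPKM from their range, since the file headers give no unit, and no source used here gives the annotation, the strand setting or how shared reads were treated. Long transcripts and library composition can shift such values. An exact 0 can be a failed estimate. Depth is unknown, so no counting interval is given.

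The table has 55420 rows, of which 7 with repeated IDs were left out. GENCODE M21 (GRCm38) gave coordinates, exon length and GC content for 94.1% of IDs. Genes averaging 1 FPKM or more in either group were kept, and log2(FPKM + 1) was fitted over all of them with limma 3.58.1 in R 4.3.3 (mean-variance trend, two-sided, Benjamini-Hochberg, threshold 0.05). Shares and ratios were compared by exact permutation in SciPy 1.17.1. The main limma fit was tested on simulated data with independent noise and rises added in genes with a WT mean of 5 FPKM or more. The simulation had no trend with length or GC content. It therefore does not cover such trends, falls, or changes in lower genes. Alternatives were a pseudocount of 0.1, no filter, a filter at 5 FPKM, quantile normalization, median-of-ratios scaling, scaling to the same sum, correction for exon length alone or with GC content (splines with 5 degrees of freedom), the replicate number as a block, a threshold of 0.01, leaving out each library, and shares weighted by length. The members and lists were chosen with earlier results of these data known. Some genes are not reported here, and counts of lists and neighbours leave them out. Named were the members, up to 4 called genes per list and direction with the smallest p, the 3 most alike genes per tested member, and nearest neighbours. Levels of Fhl3 were compared with the label and were higher under FHL3-KO, so they do not show the knockout. With 1 value per gene, an edited exon cannot be seen.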

Additional observations from a re-analysis of the deposited data

How the results depend on the processing

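The call of Eya4 held under all 17 alternatives (log2 change -0.90 to -0.32, adjusted p 0.00225 to 0.0251) and that of Eya1 under the 16 that kept it (-1.05 to -0.61, adjusted p 0.00485 to 0.0313). A filter at 5 FPKM left out Eya1, Six4 and Six5, so 1 member fell there; leaving out a library gave 2 or 3 that fell. Six5 turned to 0.09 with quantile normalization and had no value without WT replicate 2. At a threshold of 0.01, 1358 genes were called lower and 1337 higher, with 2 co-regulators higher and 1 lower. Leaving out 1 library gave 1667 to 2851 genes lower and 1602 to 2422 higher, fewest without WT replicate 2 (without FHL3-KO replicate 1, 1749 lower), and 2 to 4 co-regulators that rose. With scaling to the same sum 2 co-regulators rose, and 36.1% of all calls were higher, beside 48.2% as deposited. SIX-family targets that fell were 2 with quantile normalization, scaling to the same sum, or length and GC correction with or without the block. Slow fibre genes that fell were 1 with quantile normalization, median-of-ratios scaling, scaling to the same sum, length and GC correction, the replicate block, and both together, and 0 to 1 without a library. The EYA shares kept their direction under the 7 alternatives run for them, which were weighting by length and leaving out each library; they were not run under the other settings. Deviations of same-numbered libraries from their group means correlated at r = -0.127, -0.063 and 0.316, and not every library correlated best with its own number. They were not taken as pairs, though such correlations cannot decide whether same-numbered libraries were handled together. With the replicate block 2265 genes were called higher and 2493 lower, and Eya1 and Eya4 stayed called (adjusted p = 0.011 and 0.00598). Depth is unknown, which limits what the low values of Six5 and Eya2 can show.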

Other observations

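SIX2 and EYA1 are also known from kidney and ear progenitors, so a list of markers of those cells was read alongside. Of 7 such markers, Pax2 and Sall1 were listed at 0 in all libraries and 2 were tested. Pax8, a kidney factor below the filter, had 0.0786, 0.113 and 0.181 FPKM in FHL3-KO, against 0.461, 0.201 and 0.264 FPKM in WT, so FHL3-KO was the lower group without overlap. Of tested genes 26.9% were apart in this direction, and the share among genes below the filter was not computed. Osr1, a factor of kidney and limb mesenchyme, was higher, at 1.10, 1.86 and 1.79 FPKM in FHL3-KO against 0.629, 0.230 and 0.308 FPKM in WT. Its log2 change was 0.89 (limma adjusted p = 0.00686, and 0.0651 with the block and length and GC correction). Osr1 entered the test only through FHL3-KO, as its WT mean was 0.389 FPKM, so the test is no separate support. The growth factor Gdnf, in this list and in that of SIX-family targets, had 2.84 ± 0.14 FPKM in FHL3-KO and 2.09 ± 0.21 FPKM in WT and did not pass (limma adjusted p = 0.0538). Of 6 neuron markers 1, Tubb3, was tested and was lower, at 109, 95.7 and 116 FPKM in FHL3-KO against 147, 172 and 179 FPKM in WT (limma adjusted p = 0.00393). The other 5 were at most 0.033 FPKM in any library, and 2 of them were at 0 in all.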
